A study of Mus musculus with 4 samples.

Results

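Gamma-delta T cells were examined in single-cell RNA sequencing of CD45+ liver cells from a mouse model of hepatocellular carcinoma. Members were chosen cell by cell from raw counts of unique molecular identifiers (UMIs, each standing for 1 captured transcript). A member was a kept cell with at least 1 Cd3e UMI, at least 2 Trdc UMIs, at most 1 Trac UMI and no Cd8b1, Cd4 or Csf1r UMI, and a kept cell had 600 to 6000 detected genes and at most 5% mitochondrial UMIs. The rule took 261 of 36286 kept cells, of 39121 cells in the files: 137 in young WT, 62 in DEN-CDHFD WT, 17 in miR-146a-/- and 45 in DKO livers.

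Gamma-delta T cells carry an antigen receptor built from a gamma and a delta chain in place of the alpha and beta chains, and most do not need classical MHC molecules to be triggered. They are made in waves in the thymus, and the gamma variable segment they rearrange goes with where they settle and what they secrete: cells that produce interferon-gamma and kill targets depend on T-bet, and cells that produce interleukin 17 follow another programme. The liver holds both kinds, together with cells that express the transcription factor PLZF, and liver gamma-delta T cells are known for quick cytokine release during infection, steatosis and tumour growth.

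Each of the 4 groups was 1 library of C57BL/6 females, and the number of mice behind a library is not stated. The 36-week-old mice of 3 groups had received 25 mg/kg of the carcinogen diethylnitrosamine (DEN) on day 14 and, after weaning on day 21, a choline-deficient diet with 60% of its calories as fat (CDHFD). Those groups were wild type (DEN-CDHFD WT), without the microRNA gene miR-146a (miR-146a-/-), and without both miR-146a and the chemokine gene Ccl5 (miR-146a-/- Ccl5-/-, written DKO). The other group was untreated wild type at 8 weeks (young WT), so age, carcinogen and diet cannot be told apart in the comparison with it.

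Levels are given as CPM, the UMIs of a gene summed over the members of a library and divided by all UMIs of those members and put on the scale of 1e6 UMIs. Because a group was 1 library there is no replicate check and no test, and the 95% intervals (exact Poisson for levels, exact Clopper-Pearson binomial for shares, Newcombe for differences of shares) cover counting error only. A share of 0 is given with the limit that 3 counts of the total would make. The libraries held 90756272 UMIs in young WT, 103165826 in DEN-CDHFD WT, 88706063 in miR-146a-/- and 103147246 in DKO. The members held 1106765, 587680, 131612 and 401263 of them in that order, so 20 UMIs corresponded to 18.1, 34.0, 152 and 49.8 CPM. The median member had 7115, 8780.5, 7863 and 7646 UMIs. Pairs of libraries shared between 96 and 127 barcodes among kept cells, and members of different libraries shared 0.

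The targeted gene that the files list, Ccl5, followed the genotypes. In members its level was 7324 CPM (7165 to 7485) in young WT, 9008 CPM (8767 to 9254) in DEN-CDHFD WT, 11838 CPM (11257 to 12441) in miR-146a-/- and 77.3 CPM (52.5 to 109.7) in DKO. It was high in the 3 libraries with an intact gene and 151-fold lower in DKO than in miR-146a-/- members. The gene of miR-146a has no entry among the 32285 genes of the matrices, so the miR-146a label was not checked by its own transcript.

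Of the 455 kept cells with Cd3e and at least 2 Trdc UMIs, 194 were left out by the other limits of the rule, and that share differed between libraries. It was 33.8% in young WT, 45.1% in DEN-CDHFD WT, 68.5% in miR-146a-/- and 44.4% in DKO. More than 1 Trac UMI removed 124 cells, Cd8b1 removed 42, Cd4 removed 11 and Csf1r removed 17. Just inside the Trdc limit lay 58, 26, 6 and 15 members with exactly 2 UMIs, and just outside it lay 95, 31, 14 and 27 cells with 1 UMI that met the other limits. At the Trac limit 25, 12, 3 and 13 members had 1 UMI, and 8, 7, 5 and 5 cells with 2 UMIs fell outside.

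Members held gamma and delta variable genes, which the rule does not use, more often than other lymphocytes. The alpha-beta T cells and the NK cells and ILC1 compared here were required to hold no Trdc UMI. NK cells and ILC1 were also required to hold an Ncr1 UMI and no Cd3e UMI. The difference in delta genes may thus be partly set by how both sides were chosen, which was not tested. A UMI of a gamma variable gene was found in 252 of 261 members, a delta variable gene in 239 and a gamma constant gene in 226 (86.6%). With each cell thinned to 2000 UMIs, a gamma variable gene was found in 76.5% of members, 26.1% of alpha-beta T cells, 5.54% of NK cells and ILC1 and 0.422% of B cells. A delta variable gene was found in 69.6%, 8.74%, 27.9% and 0.357% of them, and a gamma constant gene in 44.2%, 18.0%, 22.0% and 0.292%. Among the cells the rule left out, 71.1% had a gamma constant UMI. Transcripts of the beta chain constant genes Trbc1 and Trbc2 were also present, in 216 members, and Cd8a in 40. In thinned cells the beta constant genes were found in 46.2%, 57.6%, 35.9% and 1.27%, so they do not tell members from alpha-beta T cells or NK cells. Cd3d, found in 84.6%, 83.5%, 3.30% and 0.552%, tells T cells from the others only. When NK cells and ILC1 were chosen without a limit on Trdc, 10.9%, 9.97%, 7.70% and 7.73% of them held 1 or more Trdc UMIs. Among B cells the shares were 0.487%, 0.423%, 0 of 467 and 0.422%, at median depths of 5697, 6950, 7133 and 6829 UMIs. NK cells and ILC1 thus held Trdc more often than B cells, at median depths of 6534, 8063.5, 8647 and 7850 UMIs, and the Cd3e limit keeps them out of the members. For 0 of 467 the upper limit is 0.642%.

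The gamma genes are near copies of each other, which limits how firmly a UMI names its gene. The first 120 bases of the second exon of the variable genes and of the first exon of the constant genes are shown because the receptor results below turn on them; capitals mark bases that differ from Tcrg-V1 (variable genes) or Tcrg-C1 (constant genes) at the same place, in genome build GRCm38. Tcrg-V1 lies at chr13:19340151-19340270, plus strand, Trgv2 at chr13:19336760-19336879, minus strand, Tcrg-V4 at chr13:19185200-19185319, plus strand, Tcrg-C1 at chr13:19214103-19214222, plus strand, Tcrg-C2 at chr13:19307432-19307551, minus strand and Tcrg-C4 at chr13:19344558-19344677, plus strand.
Tcrg-V1: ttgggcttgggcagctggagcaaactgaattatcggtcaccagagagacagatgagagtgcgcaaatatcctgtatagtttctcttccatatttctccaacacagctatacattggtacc
Trgv2: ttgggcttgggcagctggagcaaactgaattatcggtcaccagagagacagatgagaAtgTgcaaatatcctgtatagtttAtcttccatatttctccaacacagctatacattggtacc
Tcrg-V4: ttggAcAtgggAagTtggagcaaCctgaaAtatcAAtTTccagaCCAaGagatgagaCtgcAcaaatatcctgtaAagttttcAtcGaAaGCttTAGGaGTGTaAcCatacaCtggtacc
Tcrg-C1: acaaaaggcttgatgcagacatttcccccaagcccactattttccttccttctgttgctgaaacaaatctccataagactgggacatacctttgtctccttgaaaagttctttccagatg
Tcrg-C2: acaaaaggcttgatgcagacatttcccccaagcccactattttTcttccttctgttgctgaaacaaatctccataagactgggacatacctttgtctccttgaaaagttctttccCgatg
Tcrg-C4: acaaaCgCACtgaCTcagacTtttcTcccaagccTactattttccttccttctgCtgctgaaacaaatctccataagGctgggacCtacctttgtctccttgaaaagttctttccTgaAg
Over the whole exon Tcrg-V1 and Trgv2 were identical at 95.4% of 307 aligned positions, and 26.6% of the 31-base runs of Tcrg-V1 occurred unchanged in Trgv2. Tcrg-V1 and Tcrg-V4 were identical at 70.3% of positions and shared 0 such runs. Tcrg-C1 and Tcrg-C2 were identical at 97.3% of positions, and Tcrg-C4 matched Tcrg-C1 at 82.1%. Values of Tcrg-V1, Trgv2 and Tcrg-V3, and of Tcrg-C1 and Tcrg-C2, are therefore uncertain as single genes, whereas Tcrg-V4, Tcrg-V6 and Tcrg-C4 can be told from them. The sequence of Tcrg-C3 was not compared, and its values are treated as uncertain too.

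Genes of a cytotoxic and interferon-gamma programme were expressed in members, each in a part of the cells. In cells thinned to 2000 UMIs, Ifng was found in 27.3% of members, 23.1% of alpha-beta T cells and 1.01% of B cells, Gzmb in 39.2%, 46.0% and 2.04%, Prf1 in 13.8%, 21.1% and 1.27%, and Tbx21 in 38.5%, 23.8% and 4.28%. Of all 8599 genes with at least 20 UMIs in members, 16.8% were higher and 10.2% lower than in CD8 alpha-beta T cells of the same library in 4 of 4 libraries, and 11.0% were higher and 15.5% lower than in NK cells and ILC1. These shares are the background for the counts of list genes given here. Of 26 genes of a list of this type 1 programme measured, 11 were higher in gamma-delta than in CD8 alpha-beta T cells of the same library in 4 of 4 libraries and 4 were lower in 4 of 4. Against NK cells and ILC1, 2 were higher and 17 lower in 4 of 4. Tbx21, which encodes T-bet, stood at 245 CPM in young WT, 247 in DEN-CDHFD WT, 213 in miR-146a-/- and 162 in DKO in members, at 162 CPM in young WT, 131 in DEN-CDHFD WT, 119 in miR-146a-/- and 103 in DKO in CD8 cells, and at 450.2 CPM in young WT, 343 in DEN-CDHFD WT, 342 in miR-146a-/- and 304 in DKO in NK cells and ILC1. Eomes, the partner T-box factor, had the opposite place, with 34.3 CPM in young WT, 76.6 in DEN-CDHFD WT, 76.0 in miR-146a-/- and 99.7 in DKO in members against 121 CPM in young WT, 186 in DEN-CDHFD WT, 219 in miR-146a-/- and 207 in DKO in CD8 cells. Members of every library thus held more Tbx21 and less Eomes than the CD8 cells beside them.

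Of 9 NK and ILC1 markers, 4 (Ncr1, Klrb1c, Klre1 and Itga1) were above CD8 cells in 4 of 4 libraries and 1 (Eomes) was below. Klrc1, which encodes NKG2A, was at 595 CPM in young WT, 585 in DEN-CDHFD WT, 532 in miR-146a-/- and 603 in DKO in members and at 122 CPM in young WT, 105 in DEN-CDHFD WT, 139.7 in miR-146a-/- and 102 in DKO in CD8 cells, and its level in NK cells and ILC1 (640.4 CPM in young WT, 572 in DEN-CDHFD WT, 519 in miR-146a-/- and 551 in DKO) was close to that of members. Ncr1, which encodes the activating receptor NKp46, was at 252 CPM in young WT, 257 in DEN-CDHFD WT, 334 in miR-146a-/- and 309 in DKO, which was 8.45-fold above the alpha-beta T cells of the pooled libraries and below NK cells and ILC1 (1454 CPM in young WT, 1162 in DEN-CDHFD WT, 1307 in miR-146a-/- and 1271 in DKO). Of the same 9 markers 8 were lower in members than in NK cells and ILC1 in 4 of 4 libraries, and Itga1, which encodes CD49a, was higher. The gate of NK cells and ILC1 requires an Ncr1 UMI. The lower Ncr1 of members, in its levels and in the count of 8, therefore follows from that choice. Other genes leading over alpha-beta T cells were Fcer1g, which encodes the gamma chain used by Fc receptors and NKp46 (1046 against 209 CPM), Klrb1c (4.63-fold), Rbpms (4.89-fold), Clnk, an adaptor of immune receptor signalling (4.48-fold), and Gzmc (4.84-fold). Hbb-bt also ranked among the leading 10 genes, and all of its 524 UMIs in young WT members came from 1 cell.

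The genes furthest below alpha-beta T cells, beside the gate genes Cd8b1 and Cd4, were Coch, Gzmk and Havcr2. Coch was at 0 in members of each library, and in alpha-beta T cells it was at 0.230 CPM in young WT, 156 in DEN-CDHFD WT, 24.3 in miR-146a-/- and 32.9 in DKO. Gzmk, a granzyme of memory and exhausted CD8 T cells, was at 0.904 CPM in young WT, 6.81 in DEN-CDHFD WT, 0 in miR-146a-/- and 12.5 in DKO in members and at 273 CPM in young WT, 896 in DEN-CDHFD WT, 733 in miR-146a-/- and 859 in DKO in CD8 cells. In DEN-CDHFD WT and DKO a single cell moved it, to 3.43 and 7.58 CPM without that cell. Havcr2, which encodes TIM-3, had 1 UMI in young WT members and 0 in the other 3 libraries, against 9.62 CPM in young WT, 155 in DEN-CDHFD WT, 86.3 in miR-146a-/- and 67.3 in DKO in CD8 cells. Cytotoxic granule genes other than Gzmk were present: Gzmb was at 855 CPM in young WT, 590.5 in DEN-CDHFD WT, 1603 in miR-146a-/- and 819.9 in DKO and Prf1, which encodes perforin, at 96.7 CPM in young WT, 117 in DEN-CDHFD WT, 114 in miR-146a-/- and 159 in DKO. Xcl1, a chemokine that draws cross-presenting dendritic cells, was at 903 CPM in young WT, 943 in DEN-CDHFD WT, 843 in miR-146a-/- and 994 in DKO in members and at 366 CPM in young WT, 262 in DEN-CDHFD WT, 211 in miR-146a-/- and 209 in DKO in CD8 cells, so members were higher in each library.

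Of 16 genes of the CD3 complex and receptor signalling, 6 were lower than in CD8 cells in 4 of 4 libraries (Cd3d, Cd247, Lat, Cd5, Cd6 and Cd28) and 2 were higher (Fcer1g and Blk). Fcer1g stood at 1001 CPM in young WT, 824 in DEN-CDHFD WT, 1466 in miR-146a-/- and 1356 in DKO in members and at 128 CPM in young WT, 139 in DEN-CDHFD WT, 105 in miR-146a-/- and 216 in DKO in CD8 cells. Of 13 measured cytokine and granule genes, Tnf, Csf2, Il2 and Ltb were above CD8 cells in 4 of 4 libraries, and 0 were below in 4 of 4.

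**Figure D1:**
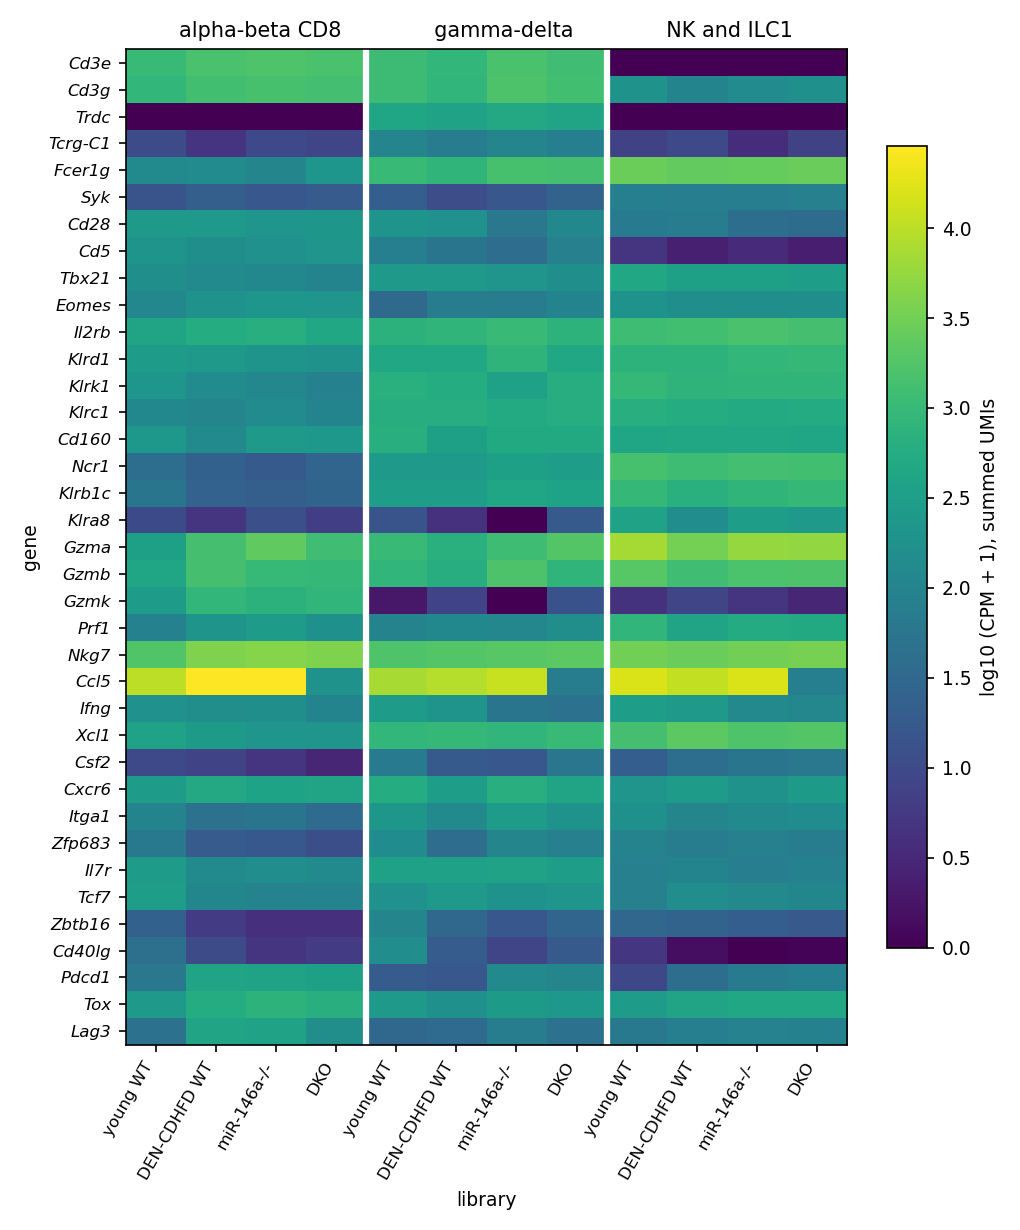
Levels of 37 genes as log10 of CPM + 1 in CD8 alpha-beta T cells, gamma-delta T cells and NK cells and ILC1, with 1 column per library. Trdc is 0 in the outer blocks and Cd3e is 0 in NK cells and ILC1 because those gates require it. The gate of NK cells and ILC1 also requires an Ncr1 UMI. Klrc1 in gamma-delta cells is close to its level in the NK block, and Gzmk in gamma-delta cells is at most 12.5 CPM.

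The share of gamma-delta T cells among kept cells was highest in young WT livers and lowest in miR-146a-/- livers. It was 1.33% (1.12 to 1.57) in young WT, 0.744% (0.571 to 0.953) in DEN-CDHFD WT, 0.217% (0.127 to 0.348) in miR-146a-/- and 0.457% (0.333 to 0.611) in DKO. The difference was -0.588 percentage points (-0.879 to -0.296) between DEN-CDHFD WT and young WT, -0.527 (-0.751 to -0.318) between miR-146a-/- and DEN-CDHFD WT, and 0.240 (0.0655 to 0.414) between DKO and miR-146a-/-. Each interval left out 0, so the differences were larger than counting error, and the spread between mice is unknown.

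The last of these differences depended on the rule. When every cell was first thinned to 2000 UMIs and 1 Trdc UMI was required, the share was 0.348% in miR-146a-/- and 0.371% in DKO livers, a difference of 0.0224 points (-0.170 to 0.204), and the miR-146a-/- to DEN-CDHFD WT difference was -0.242. With no exclusion by Trac, Cd8b1, Cd4 or Csf1r, a setting chosen after seeing the data, the shares were 2.01%, 1.36%, 0.690% and 0.822%. Young WT remained highest and miR-146a-/- lowest in these settings, while the interval of the rise from miR-146a-/- to DKO included 0 in both. With no exclusions the rise was 0.132 points (-0.131 to 0.388), and with no Trac UMI allowed it was 0.146 (-0.00785 to 0.298). Of kept cells with a Cd3e UMI, members made up 2.26%, 1.28%, 0.378% and 1.03%.

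**Figure D2:**
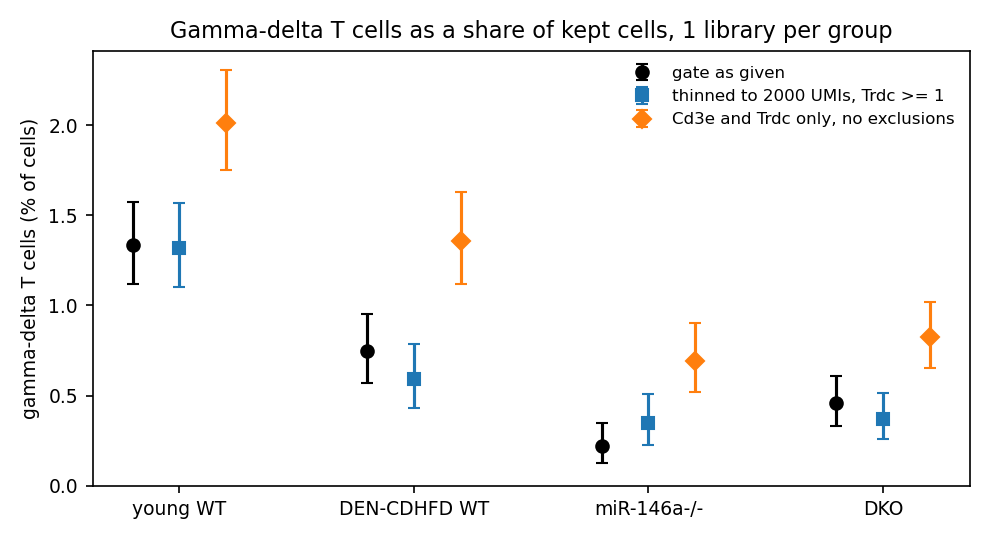
Gamma-delta T cells as a percentage of cells in each library, with exact 95% intervals, for the gate as given, for cells thinned to 2000 UMIs, and for Cd3e with at least 2 Trdc UMIs and no exclusions. Young WT is highest under each of the 3 gates, and the intervals of miR-146a-/- and DKO overlap.

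Gamma variable genes could be assigned in 225 members, by the gene with most UMIs. Trgv2 took 149 of them, Tcrg-V1 42, Tcrg-V4 24, Tcrg-V6 4, Tcrg-V3 3, Tcrg-V5 2 and Tcrg-V7 1. Because Trgv2 could not be told firmly from Tcrg-V1 and was found beside other variable genes, the assignment was repeated without it, a setting chosen after seeing the data. It then gave 112 members with Tcrg-V1, 64 with Tcrg-V4, 10 with Tcrg-V7 and 6 with Tcrg-V6 of 200 assigned. Tcrg-V1 was the most frequent gene in young WT (64 of 102), miR-146a-/- (7 of 12) and DKO (21 of 37), and in DEN-CDHFD WT Tcrg-V1 and Tcrg-V4 were found in 20 and 21 of 49. Of the delta genes, the Trav15-dv6 group was found in 110 of 228 members with an assigned delta gene (48.2%) and Trav13-4-dv7 in 32 (14.0%). Of 112 Tcrg-V1 members 64 (57.1%) carried a gene of the Trav15-dv6 group and 6 carried Trav13-4-dv7. Of 64 Tcrg-V4 members 20 (31.3%) carried Trav13-4-dv7, 13 the Trav15-dv6 group and 13 Trdv2-2. Tcrg-V6, whose cells are known for interleukin 17, was paired with Trdv4 in 3 of 6 members.

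**Figure D3:**
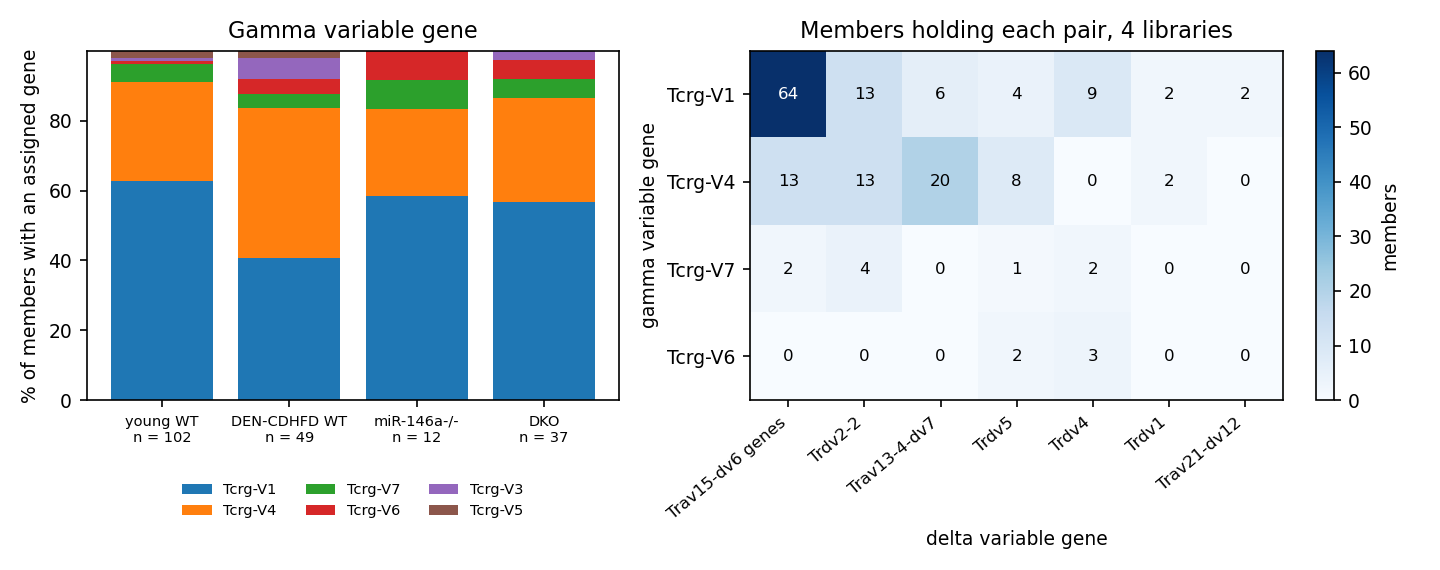
Left, the percentage of members assigned to each gamma variable gene in each library with Trgv2 left out of the assignment; right, the number of members of the 4 libraries that hold each pair of gamma and delta variable genes. Tcrg-V1 with Trav15-dv6 genes is the most frequent pair, at 64 members.

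Members with Tcrg-V1 and members with Tcrg-V4 were compared on 99 list genes. Of these genes 5 were higher with Tcrg-V1 in 4 of 4 libraries and 0 were higher with Tcrg-V4, and the median was 5 and 3 when the variable gene was dealt at random among those members of each library. The count of libraries thus does not set these genes apart, while pooled counting intervals of some genes were separate: P2rx7 was at 114 CPM (93.2 to 137) with Tcrg-V1 and 42.1 (27.0 to 62.7) with Tcrg-V4, and Cd163l1 at 2.10 (0.255 to 7.60) and 89.5 (66.7 to 118). In DEN-CDHFD WT P2rx7 had the opposite order (10.1 and 26.6 CPM). The Cd163l1 UMIs came from 1 Tcrg-V1 and 4 Tcrg-V4 members, and both groups were at 0 in DEN-CDHFD WT and miR-146a-/-. Zbtb16, which encodes PLZF, was at 83.1 against 35.1 CPM when the 4 libraries were pooled, and by library at 128 in young WT, 35.3 in DEN-CDHFD WT, 18.8 in miR-146a-/- and 31.3 in DKO with Tcrg-V1 and at 42.3 in young WT, 21.3 in DEN-CDHFD WT, 0 in miR-146a-/- and 51.0 in DKO with Tcrg-V4. It was higher with Tcrg-V1 in 3 of 4 libraries, and the miR-146a-/- library had 7 Tcrg-V1 and 3 Tcrg-V4 members. Within Tcrg-V1 members its level was 77.9 CPM with a Trav15-dv6 gene and 81.0 with another delta gene. Gzmb (1014 against 586 CPM), Zfp683, which encodes the residency factor Hobit (136 against 68.5 CPM), Ccr2 (62.0 against 26.3 CPM), Tmem176b (145 against 70.2 CPM) and Tgfb1 (178 against 128 CPM) were higher with Tcrg-V1 in 4 of 4 libraries. In miR-146a-/- this rests on 1 against 0 UMIs for Tmem176b, 3 against 0 for Ccr2 and 9 against 4 for Zfp683 (169 against 166 CPM). Ly6c2 was higher with Tcrg-V4 in 3 of 4 (768 against 1115 CPM). These genes were picked from the lists after their values were seen. Among sums of lists, type 1 core genes were at 5519 CPM (5371 to 5671) with Tcrg-V1 and 4747 (4570 to 4930) with Tcrg-V4, higher with Tcrg-V1 in 4 of 4 libraries. The whole type 1 programme was at 17646 (17380.0 to 17915) and 17951 (17605 to 18303). It was higher with Tcrg-V4 in DEN-CDHFD WT (17104 and 20927) and higher with Tcrg-V1 in each other library. Type 17 core genes were at 51.5 (38.1 to 68.1) and 209 (173 to 250), or 32.9 and 136 without the leading cell of each, and came from 6 and 7 members. Naive and recirculation genes were at 1837 (1752 to 1925) and 2523 (2394 to 2657), and the miR-146a-/- library had the opposite order.

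A sum over 10 genes of the interleukin 17 programme (type 17 core) and a sum over 10 type 1 genes (type 1 core) placed each member in a class. The classes are ranges on a score. Type 1 took 129 of 137 members in young WT, 59 of 62 in DEN-CDHFD WT, 16 of 17 in miR-146a-/- and 41 of 45 in DKO. The sums are of unlike size, with type 1 core at 5164 CPM in young WT members and type 17 core at 119. Type 1 took 245 of 261 members in all and 182 of the 194 cells that the rule left out. The class thus does not set members apart from those cells. Type 17 took 6, 2, 1 and 3 members, or 4.38% (1.62 to 9.29), 3.23% (0.393 to 11.2), 5.88% (0.149 to 28.7) and 6.67% (1.40 to 18.3), and 241 of the 261 members had no type 17 core UMI. The differences between libraries, -1.15, 2.66 and 0.784 points, had intervals that included 0 under the rule as given. Type 17 core genes summed to 119 CPM in young WT, 88.5 in DEN-CDHFD WT, 129 in miR-146a-/- and 115 in DKO. Cd163l1, which encodes the scavenger receptor SCART1, was the most abundant of them in each library, and in miR-146a-/- the whole sum came from 1 cell. Without the leading cell the sums were 81.2, 36.2, 0 and 58.2 CPM. Of the 6 Tcrg-V6 members 3 were type 17 and 3 type 1. By Tcrg-V6 assignment with all 7 genes, the members were 0 of 119, 2 of 55, 1 of 12 and 1 of 39, and 0 of 119 allows a share of up to 2.52%.

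Members held 0 Il17a and 0 Il17f UMIs in 4 of 4 libraries, which allows up to 2.19% of members with a UMI in young WT, 4.84% in DEN-CDHFD WT, 17.6% in miR-146a-/- and 6.67% in DKO. The kept cells as a whole held 9, 10, 640 and 15 Il17a UMIs in 6, 5, 17 and 4 cells. In the miR-146a-/- library 5 of those 17 cells had Cd3e and at least 2 Trdc UMIs, held 493 of the 640 UMIs, and were left out by the rule. Trac at exactly 2 UMIs removed 3 of them and a single Csf1r UMI removed 2, and C1qa and Lyz2 were at 0 in all 5. They held 17014, 7281, 27331, 5403 and 8708 UMIs, and the deepest member of that library held 14452, so 2 of them were deeper than any member and the part of doublets was not tested. They expressed Blk, a kinase of interleukin 17-producing gamma-delta T cells (3 to 18 UMIs each), and 3 of them expressed Tcrg-V6 (12 to 19) and Trdv4 (12 to 53). The Il17a level per cell ran from 1 to 276 UMIs. Of the 5, 3 held 91 or more and 2 held 1. These cells with gamma-delta T cell transcripts lay outside the gate by 1 UMI.

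With no exclusions, type 17 cells made up 7 of 207 (3.38%) in young WT, 2 of 113 (1.77%) in DEN-CDHFD WT, 7 of 54 (13.0%, 5.37 to 24.9) in miR-146a-/- and 4 of 81 (4.94%) in DKO. With at most 2 Trac UMIs in place of 1 they made up 4.14%, 2.90%, 22.7% (7.82 to 45.4) and 6%. Both settings were chosen after seeing the data. The difference of miR-146a-/- from DEN-CDHFD WT was 11.2 points (3.28 to 22.7) with no exclusions and 19.8 (5.38 to 40.6) with at most 2 Trac UMIs, and that of DKO from miR-146a-/- was -8.02 (-19.9 to 1.61) and -16.7 (-37.8 to -0.502). The type 17 share of miR-146a-/- livers thus depends on where the Trac and Csf1r limits lie.

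Liver residency genes were expressed by members of each library. Cxcr6, a receptor of liver-resident lymphocytes, was at 571 CPM in young WT, 315 in DEN-CDHFD WT, 608 in miR-146a-/- and 391 in DKO, Itga1 at 226 CPM in young WT, 133 in DEN-CDHFD WT, 281 in miR-146a-/- and 184 in DKO and Zfp683 at 144 CPM in young WT, 37.4 in DEN-CDHFD WT, 106 in miR-146a-/- and 87.2 in DKO. Of 12 residence genes measured, 5 (Itga1, Cd44, Ahr, Zfp683 and P2rx7) were above CD8 cells in 4 of 4 libraries and 1 (Prdm1) was below, and 4 (Cxcr6, Itga1, Cd69 and Cd44) were above and 1 (Nr4a1) below NK cells and ILC1. Itgae, which encodes CD103 of epithelial resident T cells, had 7, 4, 1 and 3 UMIs.

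Ly6c2, which encodes a surface marker of circulating effector and memory T cells, went with recirculation genes; it was singled out after its values were seen. It was at 422 CPM in young WT, 1809 in DEN-CDHFD WT, 759.8 in miR-146a-/- and 1239 in DKO, lowest in young WT and highest in DEN-CDHFD WT. A Ly6c2 UMI was found in 29.2% (21.7 to 37.6), 71.0% (58.1 to 81.8), 29.4% (10.3 to 56.0) and 40% (25.7 to 55.7) of members, and in 8.36%, 7.61%, 10.3% and 13.6% of B cells. After thinning to 2000 UMIs, which left out 1 young WT member, the shares were 21.3% in young WT, 62.9% in DEN-CDHFD WT, 23.5% in miR-146a-/- and 35.6% in DKO, against 4.43% in young WT, 3.46% in DEN-CDHFD WT, 5.36% in miR-146a-/- and 5.70% in DKO of B cells. In 4 of 4 libraries the Ly6c2 members had more S1pr1 and Klf2 and less Itga1, Zfp683, Cxcr6, Cd160 and Ncr1 than the other members. These were 7 of 12 genes compared, and the median was 1 of 12 when the Ly6c2 label was dealt at random within libraries. That dealing takes single cells as its units, so it says nothing of the spread between mice. In miR-146a-/- the order rests on 5 Ly6c2 members, which held 1 Zfp683 UMI and 0 Itga1 UMIs. The groups were not separate for Cxcr6: 80 of 107 Ly6c2 members (74.8%) also held a Cxcr6 UMI, the share of members with it in DKO was 83.3% with Ly6c2 and 70.4% without, and its young WT levels of 539 CPM (464 to 623) and 585 (532 to 642) overlapped. Klf2, a factor that keeps T cells in circulation, was at 1532 CPM in young WT, 1388 in DEN-CDHFD WT, 1673 in miR-146a-/- and 759 in DKO with Ly6c2 and at 761 CPM in young WT, 436 in DEN-CDHFD WT, 151 in miR-146a-/- and 237 in DKO without. The type 1 core sum was 3791 CPM in young WT, 3854 in DEN-CDHFD WT, 4578 in miR-146a-/- and 4336 in DKO with it and 5771 CPM in young WT, 6390.5 in DEN-CDHFD WT, 6382 in miR-146a-/- and 6816 in DKO without. Ly6c2 members were deeper, with median UMIs of 7624.5, 9460.0, 7863 and 8293 against 6881, 7352, 7252 and 7618, and the part of depth in their naming was not tested.

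**Figure D4:**
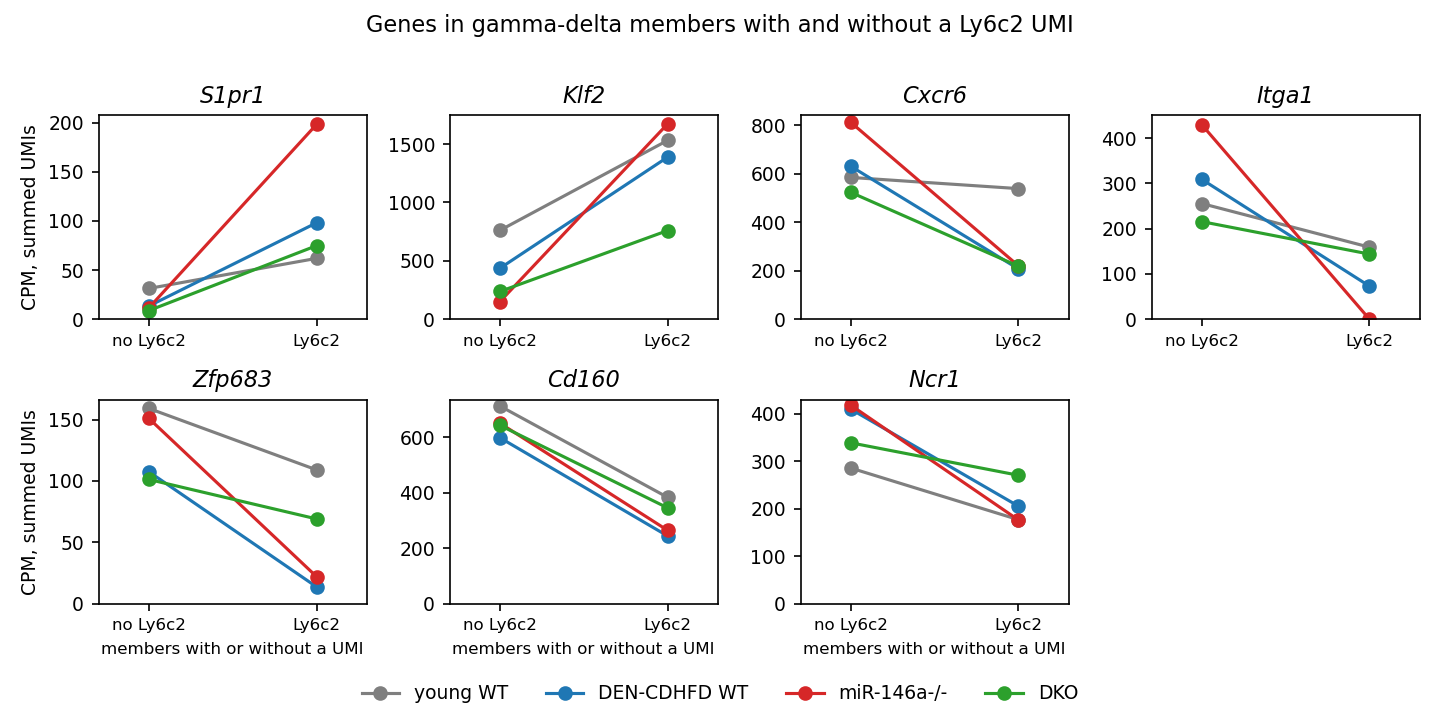
Level in CPM of 7 genes in members without and with a Ly6c2 UMI, with 1 line per library. S1pr1 and Klf2 are higher and Cxcr6, Itga1, Zfp683, Cd160 and Ncr1 lower with Ly6c2 in 4 of 4 libraries.

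The comparison of DEN-CDHFD WT with young WT asks what the carcinogen, the diet and age together go with. Of 3772 genes measured (50 CPM or more from 20 UMIs or more in either library), 63 were at least 2-fold higher in DEN-CDHFD WT members (1.67%) and 108 at least 2-fold lower (2.86%), and the median log2 ratio of all genes was -0.06. With TMM scaling, an alternative that sets libraries on a trimmed mean of gene ratios, 80 were higher and 86 lower, and with a prior of 5 counts in place of 0.5 added to each gene 59 were higher and 63 lower. The counting interval of each of the 171 genes left out no change. In simulated counts of these library sizes, 5 and 16 unchanged genes passed 2-fold when 200 others were set 4-fold lower and 4-fold higher. The simulated counts were drawn from the pooled profile of the members and hold no spread between cells. Changing 200 genes in them also shifts the share of all others.

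The PLZF gene Zbtb16 and its companion Cd40lg were lower in DEN-CDHFD WT members. Of 6 measured PLZF and type 2 genes 2 were at least 2-fold lower and 0 higher, with a median of -0.58. Zbtb16 was at 105 CPM (86.6 to 126) in young WT, 30.6 CPM (18.2 to 48.4) in DEN-CDHFD WT, 15.2 CPM (1.84 to 54.9) in miR-146a-/- and 27.4 CPM (13.7 to 49.1) in DKO, so young WT stood above the DEN-CDHFD-treated libraries, of which miR-146a-/- had 2 UMIs. Cd40lg, the helper ligand of CD40, was at 154 CPM in young WT, 18.7 in DEN-CDHFD WT, 7.60 in miR-146a-/- and 17.4 in DKO, a log2 ratio of -2.98 (-4.07 to -2.16) between DEN-CDHFD WT and young WT, and without the leading cell its level was 10.8 in DEN-CDHFD WT and 10.3 in DKO. Il4 had 46 UMIs in young WT, 8 in DEN-CDHFD WT and 0 in both mutant libraries. CD8 cells of the same libraries held Zbtb16 at 22.9 CPM in young WT, 5.31 in DEN-CDHFD WT, 3.08 in miR-146a-/- and 2.93 in DKO and Cd40lg at 42.8 CPM in young WT, 9.45 in DEN-CDHFD WT, 3.68 in miR-146a-/- and 5.29 in DKO, so young WT was highest there too.

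Of 10 residence genes measured in this comparison, 2 (Zfp683 and P2rx7) were at least 2-fold lower and 0 higher (median -0.55). Of 25 genes of the type 1 programme 3 (Eomes, Crtam and Ly6c2) were higher and 1 (Ccl3) lower, with a median of -0.06 that changed sign under TMM scaling. The 8 largest rises were Gzmm, a granzyme of innate-like lymphocytes (log2 ratio 3.38, 2.12 to 5.22), Dscam, Sgk1, Hilpda, Ifit3, Ly6c2 (2.10, 1.94 to 2.26), Ube2c and Cxcr4, the receptor for Cxcl12 (1.90, 1.26 to 2.60). Sgk1, a kinase induced by glucocorticoids, was at 18.1 CPM in young WT, 88.5 in DEN-CDHFD WT, 7.60 in miR-146a-/- and 17.4 in DKO and Hilpda, a lipid droplet protein induced by hypoxia, at 13.6 CPM in young WT, 61.3 in DEN-CDHFD WT, 30.4 in miR-146a-/- and 15.0 in DKO (7.64 in DKO without its leading cell). Single DEN-CDHFD WT cells held 60% of the Dscam, 69.4% of the Ifit3 and 96.4% of the Ube2c UMIs, and without the leading cell the level of Ifit3 was 19.0 CPM, of Dscam 24.2 and of Ube2c 3.58.

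Apart from Cd40lg, the 8 largest falls were genes of red cells and B cells. Hbb-bs was at least 422-fold, Hbb-bt at least 92.7-fold, Hba-a1 at least 83.5-fold, Hba-a2 at least 60.5-fold and Alas2 at least 11.7-fold lower in DEN-CDHFD WT, where each was at 0, computed against a floor of 3 UMIs per library. These UMIs came from 1 young WT cell but for 1 UMI of Hbb-bs. Cd79a and Iglc2 were at least 12.2-fold and 11.9-fold lower, and 60.9% and 85.1% of their young WT UMIs came from single cells.

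Inhibitory receptors rose in CD8 T cells in this comparison, and few could be measured in members. Of 8 measured in CD8 cells, 8 were at least 2-fold higher in DEN-CDHFD WT (median 2.33), where 100 of all 3499 genes were higher and 50 lower (median 0.05), whereas of 5 measured in members 0 were higher and 1 lower (median -0.49). The genes differ: only Entpd1, Tox and Cd200r1 were measured in both, with medians of 1.15 in CD8 cells and -0.49 in members, and Pdcd1, Tigit and Havcr2 were too low to measure in members. Pdcd1, which encodes PD-1, was at 19.0 CPM in young WT, 15.3 in DEN-CDHFD WT, 137 in miR-146a-/- and 107 in DKO in members and at 58.8 CPM in young WT, 402 in DEN-CDHFD WT, 370.4 in miR-146a-/- and 336 in DKO in CD8 cells. PD-1 transcript was thus low in members of both wild-type libraries and higher in both mutant libraries, and in CD8 cells it was high in the 3 DEN-CDHFD libraries. Without its leading cell the miR-146a-/- level in members was 89.3 CPM. The difference between the cell types was not tested. Tigit was at 42.5 CPM in young WT, 44.2 in DEN-CDHFD WT, 122 in miR-146a-/- and 92.2 in DKO in members and at 97.4 CPM in young WT, 527 in DEN-CDHFD WT, 339 in miR-146a-/- and 346 in DKO in CD8 cells.

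The comparison of miR-146a-/- with DEN-CDHFD WT asks what loss of the microRNA goes with, and it rests on 17 miR-146a-/- members. Of 3270 genes, 82 were at least 2-fold higher (2.51%) and 229 at least 2-fold lower (7%) in miR-146a-/- members, with an all-gene median of -0.01. TMM scaling moved that median to -0.19 and gave 38 higher and 379 lower, so changes are read against that shift. The prior of 5 counts gave 169 higher and 34 lower. The counting interval left out no change for 218 of the 311 genes. The limit of 20 UMIs stood for 152 CPM in miR-146a-/- members and 34.0 CPM in DEN-CDHFD WT members. Genes below 152 CPM in miR-146a-/- were thus measured only through DEN-CDHFD WT. The surplus of lower genes, over all genes and within lists, is partly set by these limits. In simulated counts of these library sizes, 102 and 344 unchanged genes passed 2-fold when 200 others were set 4-fold lower and 4-fold higher. Single genes among the 311 are read with those numbers beside them. They are a rough guide only, since the simulated counts hold no spread between cells and the change of 200 genes shifts the others.

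Immediate-early and stress genes were the list with most changes. Of 15 measured, 12 were at least 2-fold lower and 0 higher, with a median of -1.31 (-1.50 under TMM scaling, -1.16 with each cell weighted equally, -1 with a prior of 5 counts, and -1.73 with the leading member of each gene left out). Fos, a subunit of AP-1, was at 733 CPM in young WT, 885 in DEN-CDHFD WT, 228 in miR-146a-/- and 172 in DKO, Jun at 1664 CPM in young WT, 951 in DEN-CDHFD WT, 205 in miR-146a-/- and 361 in DKO and Nr4a1, an orphan nuclear receptor induced by receptor signals, at 226 CPM in young WT, 366 in DEN-CDHFD WT, 45.6 in miR-146a-/- and 87.2 in DKO. Both wild-type libraries were high and both mutant libraries low, and in miR-146a-/- 1 cell held most of the Fos UMIs (41.0 CPM without it) and of the Nr4a1 UMIs (17.1). The same list was lower in other cells of that library: 12 of 16 genes in NK cells and ILC1 (median -1.60), 4 of 14 in CD8 cells (-0.76), 5 of 16 in CD4 cells (-0.79) and 7 of 15 in B cells (-0.84). Of all genes measured, 49 of 3660 were at least 2-fold lower in NK cells and ILC1, 55 of 3462 in CD8 cells, 53 of 3756 in CD4 cells and 86 of 3349 in B cells, and their medians lay between -0.01 and 0.01. The part of tissue handling was not tested.

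Ifng was also lower in both mutant libraries. It was at 281 CPM (251 to 314) in young WT, 204 CPM (169 to 244) in DEN-CDHFD WT, 53.2 CPM (21.4 to 109.6) in miR-146a-/- and 44.9 CPM (26.6 to 70.9) in DKO in members, and the log2 ratio of miR-146a-/- to DEN-CDHFD WT was -1.85 (-3.29 to -0.85). The miR-146a-/- value rests on 7 UMIs and was 32.0 CPM without its leading cell. In NK cells and ILC1 it was at 313 CPM in young WT, 253 in DEN-CDHFD WT, 122 in miR-146a-/- and 115 in DKO, also lower in both mutant libraries, and in CD8 cells at 176 CPM in young WT, 155 in DEN-CDHFD WT, 165 in miR-146a-/- and 101 in DKO. Of 24 type 1 genes measured 4 (Klrc2, Ccl3, Ccl4 and Gzmb) were at least 2-fold higher and 2 (Ifng and Ly6c2) lower, with a median of 0.22. With the leading member of each gene left out 2 were higher, and with at least 3 Trdc UMIs the Ccl4 ratio was -0.19. Gzmb was higher in miR-146a-/- (1.44, 1.19 to 1.69).

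No measured gene of the NF-kB pathway that miR-146a is known to restrain was at least 2-fold higher in miR-146a-/- members. Of 12 measured genes of that pathway 0 were at least 2-fold higher and 3 (Nfkb2, Nfkbia and Tnfaip3) at least 2-fold lower, with a median of -0.61 (-0.80 under TMM scaling and -0.24 with a prior of 5 counts). The direct targets Traf6 and Irak1 were at 22.6 CPM in young WT, 23.8 in DEN-CDHFD WT, 38.0 in miR-146a-/- and 34.9 in DKO and at 64.2 CPM in young WT, 61.3 in DEN-CDHFD WT, 53.2 in miR-146a-/- and 47.4 in DKO. Traf6 lay under the 50 CPM limit in DEN-CDHFD WT and miR-146a-/- and was not among the 12 measured genes. Its level was higher in miR-146a-/- than in DEN-CDHFD WT, and that of Irak1 was lower. Nfkbia, the inhibitor that NF-kB induces, was at 471 CPM in young WT, 1043 in DEN-CDHFD WT, 205 in miR-146a-/- and 523 in DKO, high in DEN-CDHFD WT and low in miR-146a-/-. Without the leading cell the miR-146a-/- levels were 137 for Nfkbia and 23.6 for Traf6. Interferon-stimulated genes had 0 higher and 2 lower of 11 (median -0.69, and -0.14 with a prior of 5 counts), and inhibitory receptors 2 higher (Cd244a and Cd200r1) and 0 lower of 4 (median 0.93). With the leading member of each gene left out, 2 inhibitory receptors were measured and 0 were higher. Cd200r1, an inhibitory receptor for CD200, was at 62.3 CPM in young WT, 47.6 in DEN-CDHFD WT, 205 in miR-146a-/- and 77.3 in DKO.

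The 8 largest rises in miR-146a-/- were Ccl3 (log2 ratio 3.68), Cd200r2, a member of the CD200 receptor family (3.14, 2.28 to 4.09), Atp8a2, a lipid flippase, Chn2, a Rac GTPase-activating protein (2.31, 1.84 to 2.78), Cd200r1 (2.11, 1.29 to 2.92), Gzmc, Zc3h7a, an RNA-binding protein (1.80, 1.53 to 2.06) and Gm36723. In miR-146a-/- single cells held 47.8% of the Ccl3, 50% of the Atp8a2, 39.0% of the Chn2, 46.5% of the Zc3h7a and 100% of the Gzmc UMIs. Without them Ccl3 was at 279 CPM, Atp8a2 at 101, Chn2 at 389.9, Zc3h7a at 973 and Gzmc at 0. Ranked by log2 ratio with the count added to each gene, the 8 largest falls were genes at 0 in miR-146a-/- members. Each fold is therefore a lower bound against a floor of 3 UMIs per library. It was at least 5.45-fold for Ms4a4c, 4.11 for Ube2c, 3.81 for Kdm6b and 3.43 for Gm47283. For Mki67 it was at least 3.14-fold, for Gstp3 2.76, for Rara 2.69 and for Dscam 2.61. The bounds do not place these falls above that of Nr4a1, which had UMIs in both libraries. Kdm6b, a histone demethylase induced by activation, had 51 UMIs in 30 of 62 DEN-CDHFD WT members.

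The comparison of DKO with miR-146a-/- asks what loss of Ccl5 adds. Of 3369 genes, 257 were at least 2-fold higher (7.63%) and 53 at least 2-fold lower (1.57%) in DKO members, with an all-gene median of 0.07. The limit of 20 UMIs stood for 49.8 CPM in DKO and 152 CPM in miR-146a-/-. Genes below 152 CPM in miR-146a-/- were thus measured only through DKO, and the surplus of higher genes is partly set by these limits. With a prior of 5 counts the split was 46 higher and 87 lower, and the interval left out no change for 185 of the 310 genes. In the simulated counts 204 and 112 unchanged genes passed 2-fold. The small miR-146a-/- library enters this comparison and the former one with opposite sign, so the comparisons are not independent.

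Beside Ccl5, the neighbouring chemokines Ccl4 and Ccl3 were lower in DKO members. Ccl4 was at 602 CPM in young WT, 437 in DEN-CDHFD WT, 1200.5 in miR-146a-/- and 54.8 in DKO, where 1 cell held 73.4% of the miR-146a-/- UMIs and the level without it was 335. Ccl3 was at 149 CPM in young WT, 39.1 in DEN-CDHFD WT, 509 in miR-146a-/- and 37.4 in DKO. Ccl4 was lowest in DKO of the 4 libraries, and in NK cells and ILC1, with 3597 CPM in young WT, 3054 in DEN-CDHFD WT, 2399 in miR-146a-/- and 1357 in DKO, DKO was lowest too. The other falls among the 8 largest were Gzmc, Cd200r2 (-2.43, -3.34 to -1.60), Zc3h7a (-1.73, -2.02 to -1.44), Chn2 (-1.68, -2.15 to -1.22) and Klra1, a Ly49 receptor (-1.67, -2.61 to -0.74), and 1 miR-146a-/- cell held 63.6% of the Klra1 UMIs (65.6 CPM without it).

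Of 10 proliferation genes measured, 7 were at least 2-fold higher and 0 lower in DKO than in miR-146a-/- members. The median was 3.65, or 2 with genes at 0 in miR-146a-/- set to their bound. Mki67, Birc5, Ccnb2 and Cdk1 were at 0 in miR-146a-/- and passed the limits for a gene only through DKO. The count and the median are therefore partly set by those limits. Mki67 was found in 11 of 137, 7 of 62, 0 of 17 and 3 of 45 members, at 48.8 CPM in young WT, 71.5 in DEN-CDHFD WT, 0 in miR-146a-/- and 232 in DKO, so few cycling cells carried the difference. The 0 of 17 allows a share of up to 17.6%, above the 6.67% of DKO, so fewer cycling members in miR-146a-/- are not shown. Without the leading cell Mki67 was at 17.9 in DEN-CDHFD WT and 125 in DKO. Single cells held 19.6%, 37.3%, 30.1% and 32.2% of the UMIs of the list, whose sum was 1333 CPM in young WT, 1727 in DEN-CDHFD WT, 1185 in miR-146a-/- and 3080.3 in DKO and 1089, 1140, 902 and 2212 without those cells. Ranked by log2 ratio with the count added to each gene, the 8 largest rises were genes at 0 in miR-146a-/-. They were Mki67 (at least 10.2-fold), Ube2c (8.86), Hist1h1b (5.58), Rrm2 (5.47), Klra4 (4.70), Birc5 (4.70), Hist1h2ab (4.37) and Cenpf (4.26). In DKO 1 cell held between 45.1% and 58% of the UMIs of each of these genes.

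Of 12 immediate-early and stress genes measured 0 were at least 2-fold higher and 0 lower (median 0.32), and with the leading member of each gene left out 2 were higher (median 0.68). Of 10 genes of the miR-146a target pathway 2 (Nfkb2 and Nfkbia) were higher and 0 lower (median 0.36). Of 8 residence genes 0 were higher and 1 (P2rx7) lower (median -0.47), but with the leading member of each gene left out 1 was higher and 0 lower, and the P2rx7 ratio was 0.64 with at least 3 Trdc UMIs. Of 5 inhibitory receptors 0 were higher and 1 (Cd200r1) lower (median -0.42). Of 24 type 1 genes 0 were higher and 3 (Ccl3, Ccl4 and Ccl5) lower, with a median of 0.01 that changed sign when each cell was weighted equally and with a prior of 5 counts.

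**Figure D5:**
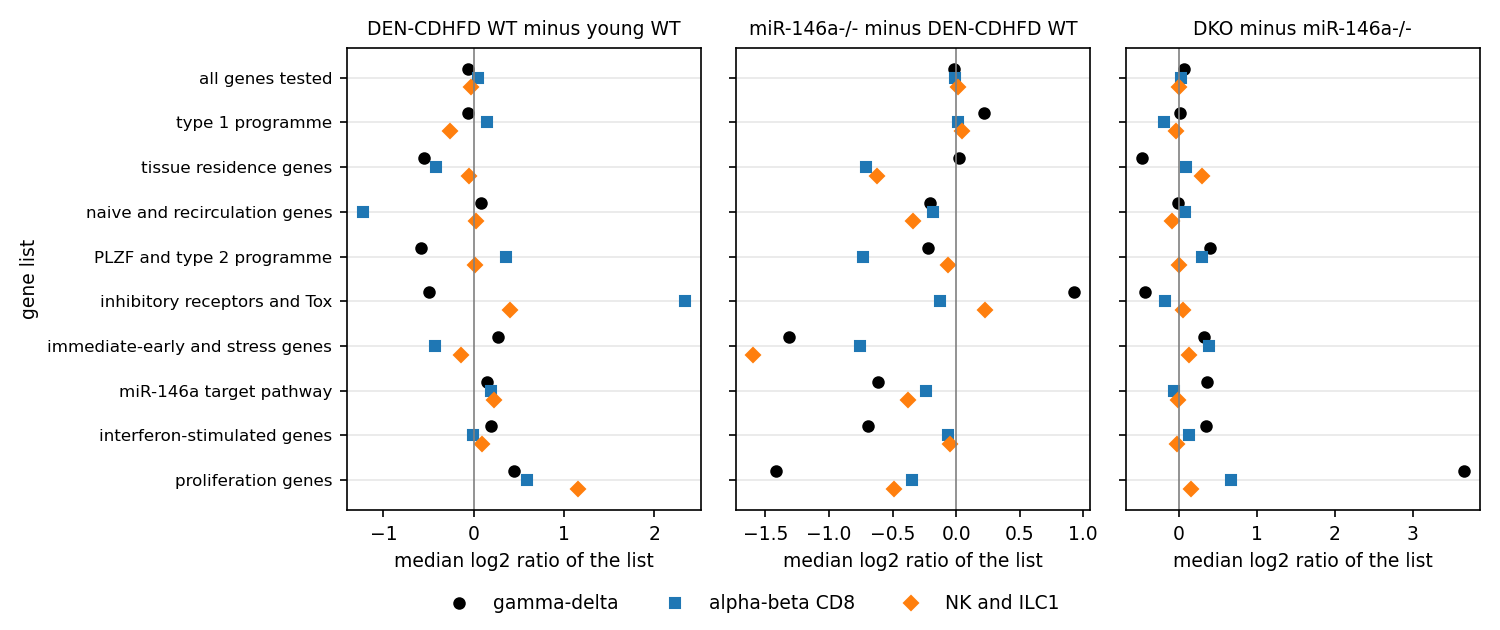
Median log2 ratio of each gene list in the 3 comparisons, for gamma-delta T cells, CD8 alpha-beta T cells and NK cells and ILC1, with the median of all genes tested on top. Inhibitory receptors are above 2 in CD8 cells and below 0 in gamma-delta cells in the comparison with young WT, but these medians cover different genes of the list. Immediate-early genes are below 0 in each cell type in the miR-146a-/- comparison.

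Transcripts of other lineages were low in most members and were uneven between libraries. Csf1r of the macrophage and monocyte list is at 0 by the rule, so its absence says nothing about the members. B cell markers summed to 454 CPM in young WT, 139.5 in DEN-CDHFD WT, 114 in miR-146a-/- and 152 in DKO, with 8, 3, 2 and 4 of 8 genes detected, Ighm most abundant, and Cd79a at 0 in the 3 DEN-CDHFD libraries; the young WT sum was 282 without 1 cell. Macrophage and monocyte markers summed to 72.3 CPM in young WT, 81.7 in DEN-CDHFD WT, 15.2 in miR-146a-/- and 135 in DKO with 8, 8, 2 and 7 of 12 detected; the most abundant were C1qb in young WT, Lyz2 in DEN-CDHFD WT and miR-146a-/- and Fcgr4 in DKO, Clec4f and Cd5l were at 0 in each library, and single cells moved the sums to 17.3, 51.7, 8.11 and 38.8 CPM when left out. Dendritic cell markers summed to 982 CPM in young WT, 179 in DEN-CDHFD WT, 60.8 in miR-146a-/- and 107 in DKO with 6, 4, 4 and 4 of 9 detected, Cd74 most abundant except in miR-146a-/-, where Ccr9 led, and Xcr1 and Siglech were at 0 in each, and the sums were 560, 119, 31.6 and 101 CPM without single cells.

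Neutrophil markers summed to 0 CPM in young WT, 1.70 in DEN-CDHFD WT, 7.60 in miR-146a-/- and 17.4 in DKO with 0, 1, 1 and 3 of 6 detected, Ly6g and Mmp8 at 0, and hepatocyte markers to 94.9 CPM in young WT, 35.7 in DEN-CDHFD WT, 7.60 in miR-146a-/- and 12.5 in DKO with 8, 5, 1 and 2 of 9 detected, Trf most abundant and Mup20 at 0. Endothelial, stellate and erythroid markers summed to 2936 CPM in young WT, 30.6 in DEN-CDHFD WT, 7.60 in miR-146a-/- and 17.4 in DKO with 6, 2, 1 and 2 of 8 detected; the young WT sum was 48.5 without 1 cell rich in Hbb-bs, Pecam1 led elsewhere, and Dcn and Lrat were at 0. Markers of alpha-beta T cells summed to 448 CPM in young WT, 385 in DEN-CDHFD WT, 539 in miR-146a-/- and 444 in DKO, Trbc2 most abundant (Trbc1 in miR-146a-/-), with 4, 5, 4 and 4 of 7 detected. Cd4 and Cd8b1 of that list are at 0 by the rule, so its sum and count are partly set by the choice of members. ILC2 markers summed to 77.7 CPM in young WT, 111 in DEN-CDHFD WT, 76.0 in miR-146a-/- and 127 in DKO, Gata3 most abundant, with 3, 5, 3 and 3 of 8 detected and Il5 at 0 in each library. When members with at least 10 UMIs of the B cell, macrophage, dendritic cell, neutrophil, hepatocyte and erythroid lists were left out (12, 3, 0 and 2 members), 190, 329 and 268 genes were past 2-fold in the 3 comparisons, against 171, 311 and 310 with them.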

How the data were processed

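The deposited values are raw UMI counts made by the authors with Cell Ranger 7.0.1 by the file headers (5.0.0 by the paper) against mm10, and no further step before deposit is described. Symbols come from the second column of the feature files. Cells were filtered and chosen as the report states; doublets were not treated and no caller was run. Counts of members were summed per library and divided by their total; log2 ratios carry 0.5 counts added to each gene. Named genes are the list genes, the 8 largest rises and falls of each comparison, and the 10 genes leading over alpha-beta T cells. Members and lists were chosen with earlier results of these data known. Alternatives changed the gate, the prior, the scaling (TMM), the limits for a gene and the members. Some were chosen after seeing the data. The code was checked on simulated data, in which unchanged genes also passed 2-fold often where the 17 miR-146a-/- members entered. Tools were Python 3.11.15, numpy 2.4.6, scipy 1.17.1, pandas 2.3.3, matplotlib 3.10.9, R 4.3.3 and edgeR 4.0.16.

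Limits: each group is 1 library with an unstated number of mice, so differences between mice, cages and library preparations cannot be told apart from genotype or treatment. The rule reads transcripts, so gamma-delta T cells with more than 1 Trac UMI, or with fewer than 2 Trdc UMIs at their depth, are not counted. The miR-146a-/- library gives 17 members, and 1 cell often carries a gene there. Receptor chains were named from gene counts without V(D)J sequencing, and Tcrg-V1, Trgv2 and Tcrg-V3 are near copies.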

Additional observations from a re-analysis of the deposited data

How the results depend on the processing

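The share of gamma-delta T cells was recomputed under 33 alternatives, of which 26 stayed within the limits set for a change and 7 went beyond them without reversing. For DEN-CDHFD WT minus young WT (main -0.588 points) the value was -1.14 with at least 1 Trdc UMI and -0.980 among kept cells with a Cd3e UMI. For miR-146a-/- minus DEN-CDHFD WT (main -0.527) it was -0.292 with at least 3 Trdc UMIs, -0.242 with thinned cells and -0.907 among Cd3e cells. For DKO minus miR-146a-/- (main 0.240) it was 0.0224 with thinned cells and 0.649 among Cd3e cells. The type 17 share in 27 alternatives and the Tcrg-V6 share in 18 stayed inside their wide main intervals, yet some moved far. For miR-146a-/- minus DEN-CDHFD WT the type 17 difference (main 2.66) was 19.8 with at most 2 Trac UMIs, 11.2 with no exclusions and -5.56 with at least 3 Trdc UMIs. The Tcrg-V6 difference (main 4.70) was 11.7 (2.27 to 26.6) with no exclusions. With at least 3 Trdc UMIs the Tcrg-V6 share was 6.25% in DEN-CDHFD WT, above that of miR-146a-/-.

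The number of genes past 2-fold moved in 4 of 24 alternatives. It was 472 in place of 171 for DEN-CDHFD WT minus young WT with a limit of 10 CPM (95 higher, 377 lower). For miR-146a-/- minus DEN-CDHFD WT it was 203 in place of 311 with a prior of 5 counts (169 higher, 34 lower) and 570 with 10 CPM. For DKO minus miR-146a-/- it was 133 in place of 310 with a prior of 5 counts (46 higher, 87 lower). With the leading member of each gene left out the split was 40 higher and 354 lower for miR-146a-/- minus DEN-CDHFD WT and 312 higher and 21 lower for DKO minus miR-146a-/-. With each cell weighted equally the latter was 258 and 93.

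Of 869 alternative values for the 127 named ratios past 2-fold (a gene in a comparison), 770 stayed within the counting interval of the main value, 84 went beyond it and 15 reversed. A further 20 gave no value because the gene had at most 3 UMIs in both libraries. Between DEN-CDHFD WT and young WT the log2 ratio of Ube2c was -0.79 without the leading member, of Csf2 0.18 with at least 3 Trdc UMIs, and of Cd79b 1.15 and H2-Aa 1.20 without members rich in transcripts of other lineages. Between miR-146a-/- and DEN-CDHFD WT, Gzmc was at -2.46 and Top2a at 0.62 without the leading member, Ccl4 at -0.19 with at least 3 Trdc UMIs, and Trdv4 at -3.81 with at least 3 Trdc UMIs, -1.47 without type 17 members and -1.45 without the leading member. Between DKO and miR-146a-/-, Gzmc was at 1.54 without the leading member, P2rx7 at 0.64 with at least 3 Trdc UMIs, and Trdv4 at 2.48, 2.76 and 2.70 under the 3 settings. The cause was not tested. No paired analysis was possible because each group has 1 library.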
